A study of Mus musculus with 7 samples.

Results

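The miR-130 and miR-301 family was described here through 5 of the 1978 mature microRNAs (miRNAs) listed in small RNA counts of mouse CD8+ T cells. The members were taken by name. They are mmu-miR-130a-3p, mmu-miR-130b-3p, mmu-miR-301a-3p and mmu-miR-301b-3p, which form the seed family, and mmu-miR-301a-5p, the opposite arm of the miR-301a hairpin. Each stood on 1 line of the count table, and all 5 were among the 288 miRNAs tested.

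The cells came from the spleen of gBT-I mice, a line whose CD8+ T cells carry a transgenic receptor for a herpes simplex virus peptide. CD8+ T cells were enriched on anti-CD8α beads and sorted by CD44 and CD122. The CD44hi CD122hi cells are known as virtual memory (VM) cells, which look like memory cells without having met antigen, and true naive (TN) is the name for cells low in both markers (CD44lo CD122lo). Adult TN, adult VM and neonatal VM cells had 2 libraries each and neonatal TN cells 1, for which no SD can be given. All groups carry the same receptor transgene, and ages beyond neonatal and adult, pooling and the number of animals were not given in the labels. With nothing to say that replicates came from separate animals, the p-values reflect only how far these libraries lie apart, and that spread may be technical.

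A miRNA is cut from a hairpin that yields a 5p and a 3p arm. The arm that is loaded into an Argonaute protein finds target messages mainly through its seed, bases 2 to 8, and lowers their translation and stability. Members of a seed family are therefore thought to share many targets. MiR-301a is known to rise in activated helper T cells, where it represses Pias3, an inhibitor of STAT3 signalling.

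The 3 members of the seed family with a mature sequence in the RefSeq table (GRCm38.p6) are shown to let the seed, in capitals, be compared with the tail that sets the members apart.
miR-130a-3p: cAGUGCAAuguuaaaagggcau
miR-130b-3p: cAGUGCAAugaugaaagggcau
miR-301a-3p: cAGUGCAAuaguauugucaaagc

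They share the seed AGUGCAA and the first 9 bases. Between miR-130a-3p and miR-130b-3p the substitutions were U11A and A13G, counted from 1 at the 5′ end with the miR-130a-3p base first, so 20 of 22 bases were identical. Of the 5 members, 4 had a mature sequence in that table, and miR-301b-3p is given by name only. In the table of 1679 mature names, 7 carried the seed AGUGCAA at bases 2 to 8, and the other 4 (miR-130c, miR-721, miR-6341 and miR-6389) had a count of 0 in every library.

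The 5p arms of 2 of the hairpins are shown because their levels are set against the 3p arms further on, with bases 2 to 8 in capitals, and miR-148a-3p because its seed, CAGUGCA, is the family's sequence shifted by 1 base.
miR-301a-5p: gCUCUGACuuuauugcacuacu
miR-130b-5p: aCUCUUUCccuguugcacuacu
miR-148a-3p: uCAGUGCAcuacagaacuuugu

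The hairpins lie at 3 loci (GENCODE M21, GRCm38, the build mm10 named in the submitters' processing notes). Mir130b (chromosome 16, 17124061 to 17124142) and Mir301b (chromosome 16, 17124400 to 17124496) lie 257 bases apart in an intron of 2610318N02Rik, on its strand. Mir301, the hairpin of miR-301a (chromosome 11, 87113004 to 87113089), lies in an intron of Ska2, on its strand. Mir130a (chromosome 2, 84741115 to 84741178) overlaps no other annotated gene.

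Library totals ran from 1577031 to 3278451 counts. Levels are CPM, each count as a share of its library scaled by TMM factors, and a difference is a log2 fold change from edgeR's quasi-likelihood test with Benjamini-Hochberg adjustment over all 288 miRNAs, called at 0.05. Replicates lay further apart in adult VM (SD of the log2 difference between replicates 0.72) than in adult TN (0.48) and neonatal VM (0.43). The lymphocyte markers miR-150-5p, miR-142a-3p, miR-142a-5p, miR-181a-5p and miR-342-3p were present in every library. Their summed level was 166051 to 286780.0 CPM in neonatal and 342208 to 592573 in adult libraries, so it was lower in all 3 neonatal libraries. MiR-150-5p, the most abundant of them in every adult library, was the 1 called lower in neonatal cells (log2 difference -2.01, adjusted p = 2.59e-04 in edgeR). MiR-181a-5p was the 1 of the 5 called higher (0.69, adjusted p = 0.0128 in edgeR). MiR-142a-3p, miR-142a-5p and miR-342-3p were not called, so the lower sum is not shared by all 5. The part of this sum in the results on age was not tested.

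The split of reads between like members is uncertain. The counts are partly fractional, and miR-130a-3p and miR-130b-3p carried the same fractional part in 7 of 7 libraries, as did miR-301a-3p and miR-301b-3p. Both counts ended in 0.5 in 3 of these libraries for the first pair and in 4 for the second, and were whole in the others. No other name in the table had either pattern (0 of 1978 names beyond each pair). MiR-130a-3p had at most 145 counts, in a library with 13981 of miR-130b-3p.

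Comparing neonatal with adult cells asked how the family changes with age, and all 5 members were higher in neonatal cells. Over both subsets each passed the test (5 of 5 higher), against 26.4% of all 288 miRNAs called higher. The members were chosen with earlier results of these data known, so this contrast is no independent support. In each of the 5 the lowest of the 3 neonatal libraries lay above the highest of the 4 adult libraries, which held for 24.0% of all tested miRNAs. The filter asked for 10 CPM in at least 2 libraries, which miR-301a-5p reached only in the 2 neonatal VM libraries and miR-130a-3p in 1 adult and 3 neonatal libraries, so both entered the test through the age in which they are high. The other 3 members reached it in adult libraries alone, and these 3 were called. In sorted bulk cells, fewer cells of a type and less RNA per cell cannot be told apart.

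**Figure D1:**
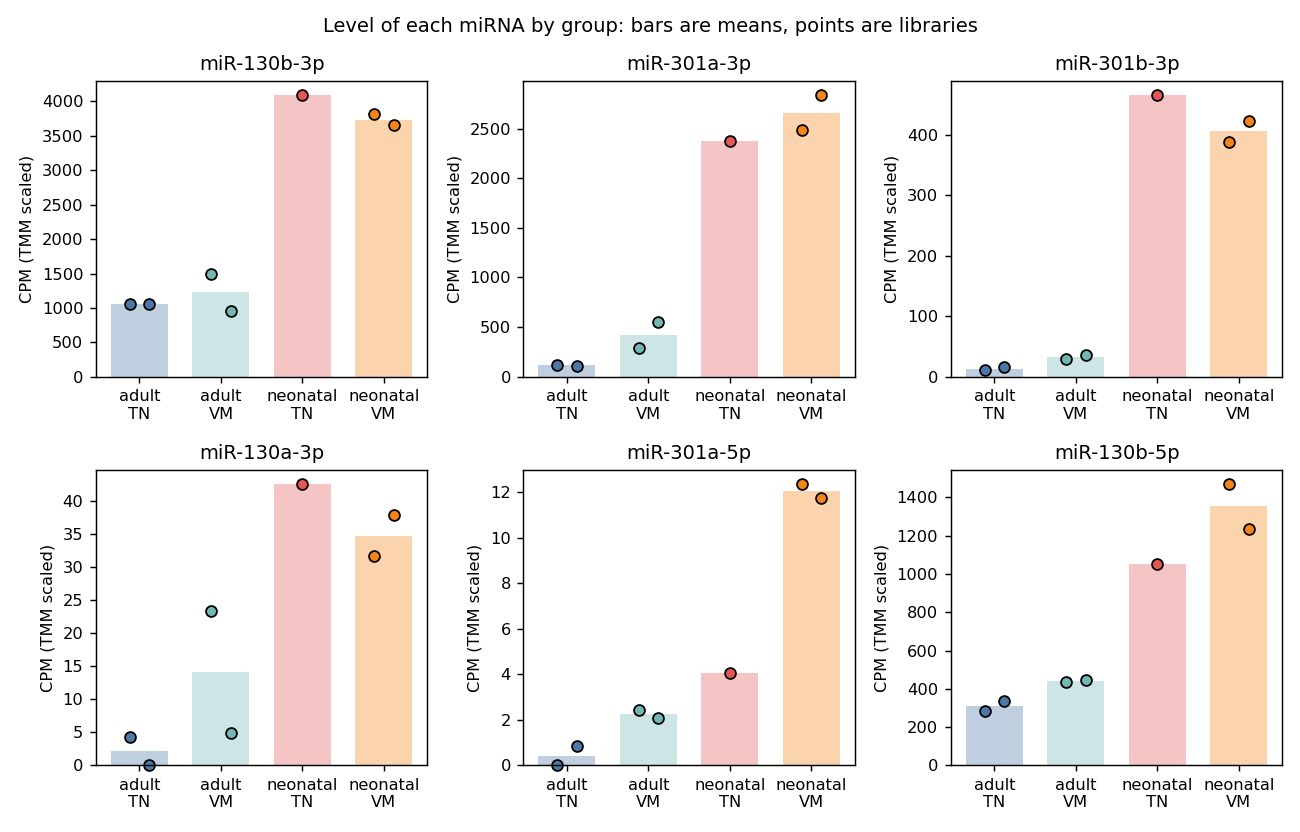
Level of the 5 members and of miR-130b-5p in CPM scaled by TMM factors, by group, with bars for means and points for libraries. All 3 neonatal libraries lie above all 4 adult libraries in each panel, and the neonatal TN library of miR-301a-5p, at 4.05 CPM, lies nearer to adult VM than to neonatal VM.

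MiR-130b-3p, the most abundant member, had 1056 and 1052 CPM in the adult TN libraries and 1499.9 and 949 in those of adult VM. The neonatal libraries had 4093 (TN) and 3819 and 3653 (VM). The ages did not overlap, while the adult subsets did. Its level was 3.37-fold higher in neonatal cells over both subsets (log2 difference 1.75 with an SE of 0.20, adjusted p = 1.90e-04 in edgeR). By mean level it ranked 41st of 288 miRNAs.

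MiR-301a-3p had 119 and 108 CPM in the TN and 291 and 547 in the VM libraries of adults. In neonates it had 2369.9 (TN) and 2481 and 2837 (VM). The 4 groups were ordered from adult TN through adult VM to neonatal TN and neonatal VM with no overlap, and the neonatal TN library lay close below the lower neonatal VM library. The rise from adult to neonatal cells was 10.5-fold (log2 difference 3.39 with an SE of 0.39, adjusted p = 1.90e-04 in edgeR). It was the 10th largest of 288. Without the neonatal TN library it was 2.69 on the log2 scale.

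MiR-301b-3p, the neighbour of miR-130b, showed the largest change of the 5. Adult libraries had 10.8 and 15.8 CPM (TN) and 29.8 and 36.0 (VM), and neonatal ones 466 (TN) and 389 and 423 (VM). Here the lowest neonatal library was 10.8 times the highest adult one, and the fitted rise was the 4th largest of 288 (log2 difference 4.22 with an SE of 0.33, adjusted p = 3.40e-05 in edgeR).

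MiR-130a-3p, whose hairpin stands apart from the others on chromosome 2, was rare. It had 4.32 CPM in 1 adult TN library and 0 counts in the other, which allows up to 1.28 CPM (3 counts, counting error only). The adult VM libraries had 23.3 and 4.84 CPM, and the neonatal ones 42.6 (TN) and 31.6 and 37.9 (VM). The libraries of the 2 ages did not overlap, but the highest adult and lowest neonatal library differed by 1.36-fold only (log2 difference 2.35 with an SE of 0.79, adjusted p = 0.0325 in edgeR). That call was lost in 5 of 13 alternatives, with adjusted p = 0.312 without a filter, 0.140 without adult VM replicate 2, 0.124 without adult TN replicate 1, 0.0682 without neonatal VM replicate 2 and 0.235 without the neonatal TN library. The log2 difference was 1.36 without the neonatal TN library and 3.55 without adult VM replicate 1.

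MiR-301a-5p, the rarer arm of its hairpin, was near the detection limit in adult cells, with 0 and 0.856 CPM (TN) and 2.42 and 2.07 (VM). The library at 0 allows up to 1.62 CPM. Neonatal libraries had 4.05 CPM (TN) and 12.4 and 11.8 (VM), which rest on 13, 25 and 45 counts. The rise from adult to neonatal cells (log2 difference 2.53, adjusted p = 1.24e-03 in edgeR) had a wide SE (0.43) beside that of miR-130b-3p.

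**Figure D2:**
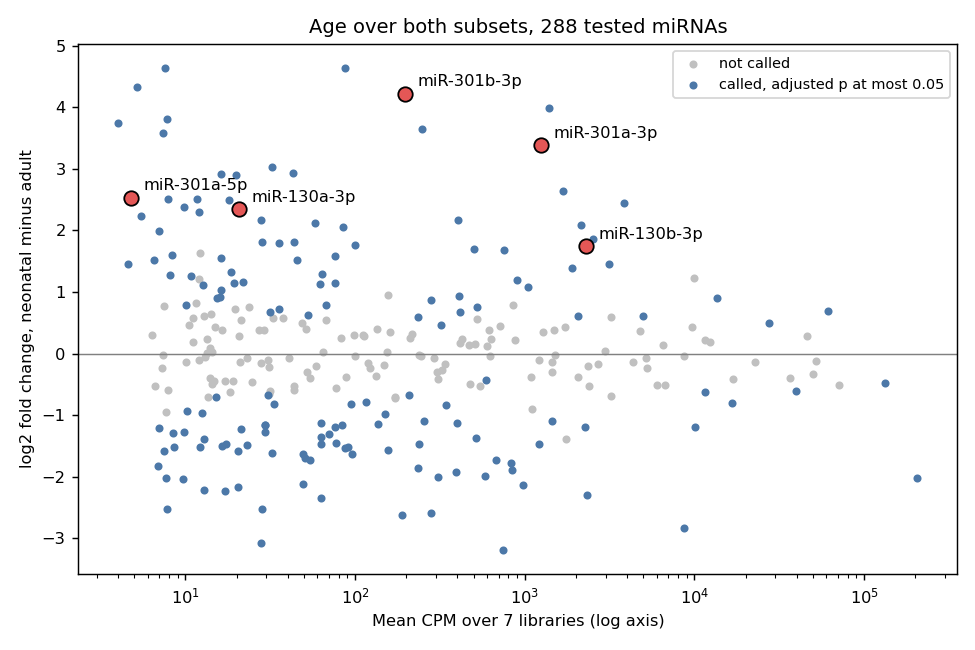
Log2 fold change of neonatal over adult cells, over both subsets, against the mean CPM of all 288 tested miRNAs on a log axis, with called miRNAs in blue, others in grey and the 5 members in red. All 5 members lie above 1.7, with miR-301b-3p at 4.22 and miR-130b-3p at 1.75.

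Scaling sets the centre of these values. With library totals alone, the median of all tested miRNAs moved up by 0.45 on the log2 scale. Then 119 were called higher and 53 lower in neonatal than in adult cells, against 76 and 79 with TMM. The members moved up by about as much as that median, to 4.67 for miR-301b-3p, 3.83 for miR-301a-3p, 3.003 for miR-301a-5p, 2.78 for miR-130a-3p and 2.19 for miR-130b-3p, and all 5 stayed called.

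Within TN cells the 5 members were again called higher, beside 26.4% of all miRNAs, with 1 neonatal and 2 adult libraries in the comparison. The neonatal library lay above both adult ones for all 5, as for 47.9% of all tested miRNAs. MiR-301a-5p and miR-130a-3p would not have passed the filter without neonatal libraries, so their calls and their separation are no support. MiR-301b-3p rose 34.5-fold (log2 difference 5.11 with an SE of 0.29, adjusted p = 2.00e-07 in edgeR) and miR-301a-3p 20.9-fold (4.38, SE 0.34, adjusted p = 7.03e-06), while miR-130b-3p rose 3.88-fold (1.96, SE 0.26, adjusted p = 1.04e-04). The calls of the 2 rare members were less firm. MiR-130a-3p (4.41, SE 1.28, adjusted p = 0.0373) kept its call in 6 of 12 alternatives and had adjusted p = 0.0786 with DESeq2, 0.0587 with the largest value over precursors, 0.165 without a filter, 0.0628 without adult TN replicate 2, 0.151 without neonatal VM replicate 1 and 0.142 without neonatal VM replicate 2. MiR-301a-5p (2.97, SE 0.98, adjusted p = 0.0256) kept its call in 7 of 10, with 0.0899 with DESeq2, 0.0571 without a filter and 0.0952 without adult TN replicate 1. The fitted sizes of both moved widely. MiR-130a-3p had a log2 difference of 3.17 without adult TN replicate 2 and 9.89 without replicate 1, and miR-301a-5p had 2.06 without replicate 1 and 6.41 without replicate 2. The larger value of each is against a lone adult TN library with 0 counts, so it depends on the prior count and is no measure of size. The calls of the other 3 held in 13 of 13 alternatives. Scaled by totals, 106 miRNAs were called upward and 38 downward in TN cells, compared with 76 and 62.

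Within VM cells 4 of 5 members were called higher, beside 22.9% of all miRNAs. Of these, miR-301a-5p reached 10 CPM only in the 2 neonatal VM libraries. It was tested only through the group in which it is high, so its call is no support. Both neonatal libraries lay above both adult ones for all 5, as for 36.8% of all tested miRNAs. For miR-301a-5p and miR-130a-3p, which needed neonatal libraries to pass the filter, this separation is no support. MiR-301b-3p rose 12.3-fold (log2 difference 3.62 with an SE of 0.25, adjusted p = 3.11e-07 in edgeR), miR-301a-3p 6.35-fold (2.67, SE 0.29, adjusted p = 4.51e-05), miR-301a-5p 5.29-fold (2.40, SE 0.54, adjusted p = 2.69e-03) and miR-130b-3p 3.05-fold (1.61, SE 0.23, adjusted p = 9.59e-05). MiR-130a-3p did not pass (1.33, SE 0.88, adjusted p = 0.250), and its adult VM replicates, at 23.3 and 4.84 CPM, lay far apart. Without adult VM replicate 1 miR-130a-3p had a log2 fold change of 2.83, and without replicate 2 one of 0.64. Each of these fits has 1 adult VM library, so the spread between the adult VM replicates does not enter it. Library totals gave 117 higher and 49 lower calls in VM cells, against 66 and 89.

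The family as a whole and its make-up differed between the ages. Summed over the 4 seed family members, the level was 1189.9 and 1176 CPM (TN) and 1844 and 1536 (VM) in adults, and 6971 (TN) and 6721 and 6951 (VM) in neonates. The group means differed 5.89-fold between neonatal and adult TN and 4.05-fold between neonatal and adult VM. The family took 0.0919% to 0.169% of all counts in adult libraries and 0.751% to 0.885% in neonatal ones.

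MiR-130b-3p made up 89.1 ± 0.558% of the summed counts in adult TN (SD, n = 2) and 71.6 ± 13.9% in adult VM (n = 2). It made up 58.7% in the neonatal TN library (95% Wilson interval 58.1 to 59.4%, counting error only) and 54.7 ± 3.02% in neonatal VM (n = 2). MiR-301a-3p took 9.60 ± 0.597% (TN) and 25.7 ± 14.0% (VM) in adults, and 34.0% (TN, 33.4 to 34.6%) and 38.9 ± 2.75% (VM) in neonates. MiR-301b-3p took 1.13 ± 0.311% and 1.97 ± 0.520% in adult TN and VM, and 6.68% (6.37 to 7.02%) and 5.93 ± 0.218% in neonatal TN and VM. The adult VM replicates were far apart, with 81.4% and 61.8% of miR-130b-3p, and the second lay nearer to the neonatal libraries than to the first. MiR-130a-3p stayed at or under 1.27% in every library.

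**Figure D3:**
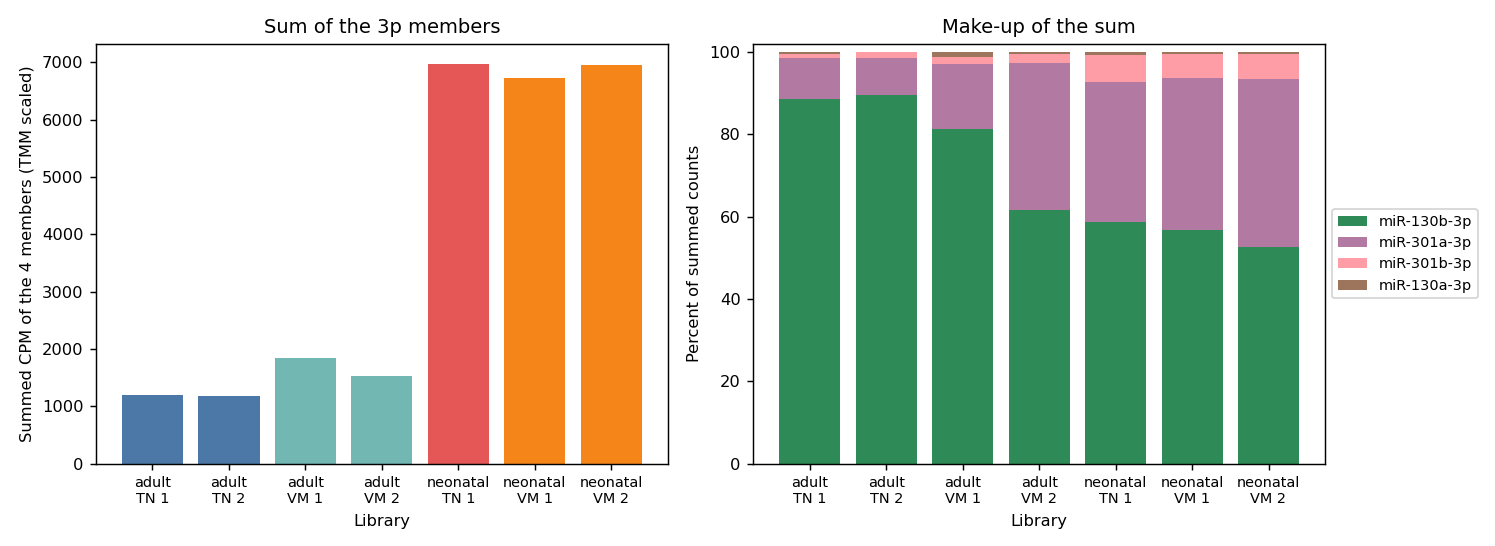
Left, summed level of the 4 seed family members in CPM for each library, from 1176 in adult TN to 6971 in neonatal TN. Right, percent of the summed counts taken by each member, where miR-130b-3p makes up 89.1% on average in adult TN and 54.7% in neonatal VM, and nearly all of the remainder is miR-301a-3p and miR-301b-3p.

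Ratios of counts within a library need no scaling between libraries. MiR-301b-3p and miR-130b-3p come from hairpins 257 bases apart. There was 1 count of miR-301b-3p for 95.5 and 65.6 counts of miR-130b-3p (TN) and 50.4 and 26.3 (VM) in adults, and for 8.78 (TN) and 9.83 and 8.63 (VM) in neonates. The log2 ratio was -3.18 ± 0.10 in neonatal libraries (SD, n = 3) and -5.75 ± 0.78 in adult libraries (n = 4), with no overlap, a difference of 2.57. An exact two-sided permutation test over libraries gave p = 0.0571 (0.114 after Benjamini-Hochberg adjustment over 2 such ratios), the smallest p that 3 against 4 libraries allow. The difference was 3.17 in TN cells and 1.98 in VM cells.

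Whether the arm ratio of miR-301a overlapped between the ages depended on the count added to each value. With 0.5 added, the 3p to 5p log2 ratio was 8.22 ± 0.81 in neonatal libraries (SD, n = 3) and 7.54 ± 1.01 in adult libraries (n = 4) (difference 0.68, exact two-sided permutation p = 0.400). The 5p arm had 0 to 45 counts, and the ratio of adult TN replicate 1, with 0, is set by the added count. With 5 added to both counts, the 3p to 5p ratio was 167 to 423 in neonatal and 36.7 to 144 in adult libraries. These did not overlap (log2 difference 1.98, exact two-sided permutation p = 0.0571). The 5p arm had 0 to 6 counts in adult libraries, so adding 5 lowers the adult ratios more than the neonatal ones. The lack of overlap is therefore no measure of the arms. With 0.5 added the adult libraries had ratios of 443 and 101 (TN) and 111 and 243 (VM). The neonatal libraries then had 564 (TN) and 197 and 239 (VM).

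MiR-130b-5p, the opposite arm of the miR-130b hairpin, was far more abundant than miR-301a-5p. Adult libraries had 284 and 335 CPM (TN) and 434 and 448 (VM), and neonatal ones 1051 (TN) and 1472 and 1236 (VM). Its rise from adult to neonatal cells (log2 difference 1.68, SE 0.16, adjusted p = 7.00e-05 in edgeR) was close in size to that of miR-130b-3p. The 3p to 5p ratio, chosen after its values were seen, ran from 2.12 to 3.72 in adult and from 2.60 to 3.89 in neonatal libraries, so the ages overlapped. The remaining partners were not tested. MiR-130a-5p had a count of 0 in every library, and miR-301b-5p had at most 3.92 CPM.

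**Figure D4:**
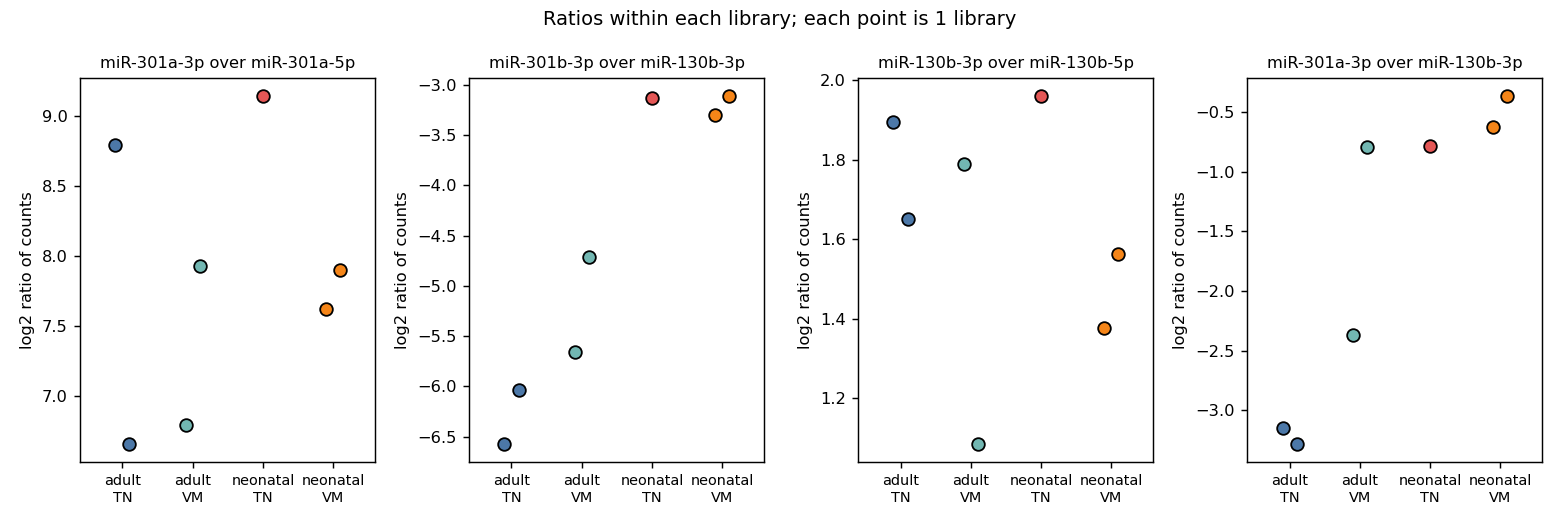
Log2 ratios of counts within each library, 1 point per library, by group. MiR-301b-3p over miR-130b-3p and miR-301a-3p over miR-130b-3p (the latter chosen after its values were seen) lie higher in all 3 neonatal than in all 4 adult libraries, the second by a narrow margin (-0.79 against -0.80), while both 3p over 5p ratios overlap between ages with the 0.5 added here (that of miR-301a does not with 5 added).

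Comparing VM with TN cells asked whether the family marks the sorted subset. In adult cells 2 of 5 members were called higher in VM, miR-301a-3p (log2 difference 1.88 with an SE of 0.29, adjusted p = 1.09e-03 in edgeR) and miR-301b-3p (1.29, SE 0.27, adjusted p = 3.44e-03), beside 23.3% of all miRNAs called higher. For 4 of 5 members, all but miR-130b-3p, both adult VM libraries lay above both adult TN libraries, which held for 37.8% of all tested miRNAs. For miR-130a-3p the nearest libraries had 14.5 (VM) and 8.5 (TN) counts, or 4.84 and 4.32 CPM. MiR-301a-5p had 6 and 6 counts in VM and 0 and 2 in TN. Counts this low do not place the subsets of these members firmly. MiR-130b-3p (0.22, SE 0.22, adjusted p = 0.455), miR-130a-3p (2.80, SE 1.26, adjusted p = 0.135) and miR-301a-5p (2.13, SE 0.99, adjusted p = 0.101) did not pass. In adult VM both tested erythroid markers (miR-486a-5p and miR-486b-5p, with nearly equal counts) were called higher than in adult TN as well. So were 1 of the 3 endothelial and progenitor markers and miR-143-3p, the 1 tested stromal marker. The part of these markers in the result was not tested. MiR-301a-3p had a log2 difference of 1.24 without adult VM replicate 2 and adjusted p = 0.0570 without adult TN replicate 2, and miR-301b-3p had 0.0785 without adult TN replicate 1. Without adult VM replicate 2, the log2 difference was 3.44 for miR-130a-3p and 0.39 for miR-130b-3p. That fit has 1 adult VM library, so the spread between adult VM replicates does not enter it.

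In neonatal cells, where 2 VM libraries were set against 1 TN library, no member was called by edgeR (0 of 5, with 1 at an unadjusted p under 0.05) or by DESeq2 (0 of the 4 with an adjusted p). Of all miRNAs 3.12% were called higher and 6.6% lower. The log2 fold changes were 0.17 (SE 0.33) for miR-301a-3p, -0.20 (SE 0.26) for miR-301b-3p, -0.13 (SE 0.27) for miR-130b-3p and -0.29 (SE 0.99) for miR-130a-3p. MiR-301a-5p had 1.56 (SE 0.61, edgeR adjusted p = 0.151), and 1.53 to 1.64 with 1 library left out. It passed the filter only through the 2 neonatal VM libraries, the higher side of this comparison. The sign of miR-301b-3p and miR-130b-3p turned under library totals, at 0.05 and 0.11. Over all miRNAs 9 calls were upward and 19 downward, compared with 21 and 14 when scaled by totals and 14 and 19 with RLE factors.

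Over both ages 1 of 5 members was called higher in VM, miR-301a-5p (log2 difference 1.72 with an SE of 0.47, adjusted p = 0.0319 in edgeR), beside 10.8% of all miRNAs called higher. It entered the test only through the 2 neonatal VM libraries, and without either of them it was not tested. That call was lost when a library was left out, with adjusted p = 0.0804 when this was adult VM replicate 1, 0.0574 for adult TN replicate 1, 0.0756 for adult TN replicate 2 and 0.100 for neonatal TN. MiR-301a-3p just missed the threshold (1.14, SE 0.38, adjusted p = 0.0580) and passed with library totals (0.0367), without a filter (2.86e-04), with DESeq2 (0.0231) and without the neonatal TN library (1.23e-03). MiR-301b-3p had 0.57 (SE 0.32, adjusted p = 0.214) and miR-130b-3p 0.07 (SE 0.20, adjusted p = 0.831). MiR-301b-3p was called without the neonatal TN library (1.28, adjusted p = 4.54e-03), where the subsets are compared in adult cells alone. Over all miRNAs 31 calls were upward and 40 downward, compared with 59 and 27 when scaled by totals.

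The test of the interaction asked whether the age difference is the same in both subsets. The rise of both miR-301 3p members was smaller in VM than in TN cells, by 1.72 for miR-301a-3p (log2 scale, SE 0.43, edgeR adjusted p = 0.0406) and by 1.49 for miR-301b-3p (SE 0.37, adjusted p = 0.0323). Interactions in that direction were called for 6.25% of all miRNAs. The 1 tested stromal marker and both tested erythroid markers (miR-486a-5p and miR-486b-5p, with nearly equal counts) were called in that direction too. The part of these markers in the result was not tested. In levels, the adult VM libraries stood between adult TN and the neonatal groups for both. MiR-130b-3p had an interaction of -0.35 (SE 0.35, adjusted p = 0.622), miR-130a-3p of -3.08 (SE 1.61, adjusted p = 0.306) and miR-301a-5p of -0.57 (SE 1.11, adjusted p = 0.841), and none of these passed.

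The interaction rests on few libraries. The call of miR-301a-3p was lost in 7 of 13 alternatives, with adjusted p = 0.0752 under RLE factors, 0.0661 under library totals, 0.0602 with the 100 CPM filter and 0.0598 with the largest value over precursors. Leaving out adult TN replicate 1 (0.191) or 2 (0.318) or neonatal VM replicate 1 (0.0673) also ended it. The call of miR-301b-3p was lost in 4 of 13, on leaving out adult TN replicate 1 (0.199) or 2 (0.108), or neonatal VM replicate 1 (0.125) or 2 (0.0630). Without adult VM replicate 2, which leaves 1 adult VM library, the interaction was -1.10 for miR-301a-3p, -3.75 for miR-130a-3p and -0.55 for miR-130b-3p. Interaction calls were 5 higher and 18 lower in all, against 8 and 14 under RLE factors.

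**Figure D5:**
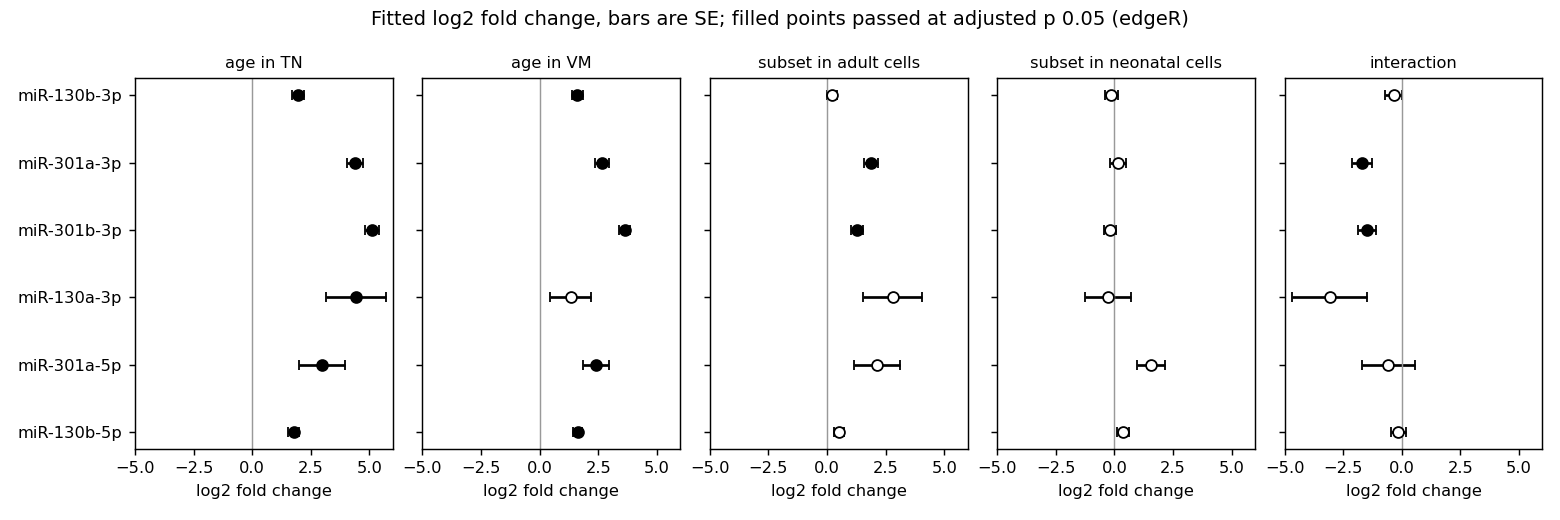
Fitted log2 fold changes of the 5 members and miR-130b-5p in 5 comparisons, with SE as bars and filled points for adjusted p of at most 0.05. The age differences of miR-301a-3p and miR-301b-3p are larger in TN (4.38 and 5.11) than in VM (2.67 and 3.62), and no point is filled for the subset difference in neonatal cells.

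The tested miRNAs with the overlapping seed were higher in neonatal than in adult cells as well. Both tested members were called higher, miR-148a-3p at 2.64 and miR-148b-3p at 1.39 (log2 fold changes), beside 26.4% of all miRNAs, and miR-152-3p, with at most 1.24 CPM, was not tested. MiR-148a-3p is a lymphocyte miRNA known to target the pro-apoptotic factor Bim.

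Patterns over the 7 libraries were compared by the root mean square difference of log2 CPM, each miRNA centred on its own mean, where the median over all pairs of tested miRNAs was 1.02. Within the family miR-301a-3p and miR-301b-3p, from different chromosomes but with the shared fractional counts described above, were closest (0.50), while the genomic neighbours miR-301b-3p and miR-130b-3p lay at 1.36. Outside the family miR-130b-3p was most like miR-1981-5p (0.14), miR-5099 (0.18) and miR-7688-5p (0.22). MiR-301a-3p was most like miR-210-3p, a hypoxia-responsive miRNA (0.34), miR-148a-5p (0.47) and miR-18b-5p (0.52). MiR-301b-3p was most like miR-190a-5p (0.53), miR-31-5p (0.66) and miR-210-5p (0.67). MiR-130a-3p was most like miR-205-5p (0.69), miR-1933-3p (0.85) and miR-210-3p (1.04). Each value is over the same 4 adult and 3 neonatal libraries.

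Markers of other cells were measured beside the family, where 26.4% of all miRNAs were called higher and 27.4% lower in neonatal cells. The stromal and muscle list had 1 of 8 members tested, which was called higher in neonatal cells. The list summed to 35.6 to 70.6 CPM in neonatal and 5.94 to 28.7 in adult libraries. Its miR-214-3p and miR-206-3p were at 0 throughout. Of the 3 endothelial and progenitor markers, 2 were called higher and 1 lower in neonatal cells. Their sum was 86.5 to 139 CPM in neonatal and 75.0 to 192 in adult libraries. The 2 myeloid markers summed to at most 4.18 CPM in neonatal and 15.9 in adult libraries. The erythroid list, with 2 of 5 members tested and none called over both subsets, summed to 156 to 446 CPM in neonatal and 243 to 593 in adult libraries. Both tested erythroid markers, miR-486a-5p and miR-486b-5p, were called lower in neonatal than in adult VM cells (30.9% of all miRNAs). They were also called lower in VM than in TN cells of neonates (6.6%). Their counts were nearly equal in every library, such as 611 and 605 in adult VM replicate 1, so they are not separate observations. MiR-451a, an erythroid marker that was not tested, had unscaled counts of 4 to 9 in adult and 11 to 31 in neonatal libraries. The stromal sum was mostly miR-143-3p, the 1 tested stromal marker, with 64 and 168 (VM) and 216 (TN) counts in neonatal libraries. This marker was called higher in neonatal cells over both subsets and within TN cells, but not within VM cells. The part of the stromal sum in the results on age was not tested.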

How the data were processed

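Per the labels' protocols, small RNA libraries of sorted CD8+ T cells were made with the Illumina TruSeq kit from inserts of about miRNA length. The authors deposited estimated counts for each mature arm and precursor, with fractional values and no normalization. Which aligner or counter was used is not given in the sources used here. The submitters' processing notes name the build mm10.

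Counts were summed per mature name and rounded for the tests. Names reaching 10 CPM in 2 or more libraries (288) were tested in edgeR 4.0.16 (R 4.3.3) with TMM factors, robust dispersions and the quasi-likelihood test. Age and subset over both levels came from an additive model, other comparisons from group means over all 7 libraries. SE is the log2 fold change over the root of F. Neonatal TN, with 1 library, is assumed to vary like the other groups. The members and lists were chosen with earlier results of these data known. Named were the members, their hairpin partners, miRNAs with the overlapping seed and, per 3p member, the 3 nearest patterns (on log2 of CPM plus 0.5). Alternatives were RLE factors, library totals, no filter, 100 CPM, DESeq2 1.42.0, the replicate number as a block, the largest value over precursors, each library left out and, for ratios, 5 added to each count. The fits of age and subset over both levels were tested on simulated counts with known changes. Reads and targets were not analysed here.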

Additional observations from a re-analysis of the deposited data

Results flagged for a closer look

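The age differences of 2 members differed between the subsets by the interaction test. The rise of miR-301a-3p from adult to neonatal cells was smaller in VM than in TN cells (interaction -1.72 on the log2 scale, SE 0.43, edgeR adjusted p = 0.0406), and so was that of miR-301b-3p (-1.49, SE 0.37, edgeR adjusted p = 0.0323). Both rest on 1 neonatal TN library, and its own spread was not measured. The direction was the same in 13 of 13 alternatives for each, with ranges of -2.08 to -1.10 and -1.67 to -1.17, while adjusted p ran up to 0.318 and 0.199.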

How the results depend on the processing

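The age calls of miR-301a-3p, miR-301b-3p and miR-130b-3p, over both subsets and in each, kept direction and side of the threshold in every alternative run. With the 100 CPM filter, which removes miR-130a-3p and miR-301a-5p, fewer miRNAs were tested and the calls were 79 for age over both subsets (155 at 10 CPM), 69 in TN (138), 93 in VM (155) and 41 for subset over both ages (71). Without a filter 53 were called for subset in neonatal cells (28) and 43 for the interaction (23), which had 38 with DESeq2. The cause was not tested.

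Leaving out 1 library at a time gave 115 to 158 calls for age over both subsets, 83 to 179 in TN, 106 to 171 in VM, 18 to 111 for subset over both ages, 23 to 142 in adult cells, 16 to 77 in neonatal cells and 6 to 86 for the interaction. The difference in log2 ratio ran from 0.22 to 1.09 for the miR-301a arms and from 2.29 to 2.91 for miR-301b-3p over miR-130b-3p. Without the neonatal TN library the TN, neonatal and interaction comparisons could not be fitted.

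Replicate numbers did not pair the samples (correlations of deviations 0.02, 0.14 and -0.16). With the replicate block, 42 miRNAs were called for subset over both ages, and miR-301a-5p lost its call there (adjusted p = 0.0689).

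The values that turned sign had not been called at the settings of the report. For miR-130b-3p these were subset over both ages (-0.0092 with 100 CPM, 0.21 without neonatal TN as the highest of the left-out values, -0.0057 with the largest value over precursors, -0.16 without adult VM replicate 1, -0.04 without adult TN replicate 1), subset in adult cells (-0.18 to 0.39 with 1 library left out) and the interaction (-0.55 to 0.047), where the upward interaction and the lower adult value came without adult VM replicate 1. In neonatal cells the subset difference turned for miR-130b-3p (0.11) and miR-301b-3p (0.047) under library totals, and for miR-130a-3p (0.41) and miR-301a-3p (-6.63e-05) with the replicate block. The interaction turned for miR-130b-5p (0.0072 with 100 CPM, -0.17 to 0.068 with 1 library left out) and miR-301a-5p (-3.99 to 0.30, the latter without adult TN replicate 1).

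Depth limits miR-130a-3p and miR-301a-5p most, at 0 to 58 and 0 to 6 counts in adult libraries.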
